A study of Mus musculus with 5 samples.

Results

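The Tet genes encode the dioxygenases that make 5-hydroxymethylcytosine (5hmC) from 5-methylcytosine (5mC), so the distribution of both marks was read over the genes of their own enzymes. The family has 3 members, Tet1, Tet2 and Tet3, and all 3 were taken. Each was defined by a fixed window of the mouse assembly mm9, and a read belonged to a window when its midpoint fell inside it. The Tet1 window was chr10:62266001-62343000 (77 kb), the Tet2 window chr3:133126001-133208000 (82 kb) and the Tet3 window chr6:83312001-83410000 (98 kb), each with flanks of 10 kb. Together they hold 257 bins of 1 kb, against 2440090 bins of chromosomes 1 to 19 and X that held a read in at least 1 library.

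The study profiled 5mC and 5hmC in mouse embryonic stem cells, cultured feeder-free with leukaemia inhibitory factor and 10% fetal calf serum. There were 5 libraries of 35-bp reads, 1 per group. In MeDIP, denatured DNA was precipitated with an antibody to 5mC. In hMeDIP, an antibody to 5hmC was used in the same way. In MethylCap, DNA fragments held by a His6-GST-MBD protein were eluted at 600 mM or at 800 mM NaCl. The MBD, a methyl-CpG binding domain, binds methylated CpG in double-stranded DNA, and fragments with many methylated CpGs are held to higher salt. The input was sequenced without enrichment. The 4 enriched libraries came from E14 clones of a gene-trap library, in which a vector sits in a trapped gene, and the labels do not name that gene. The input came from TNG-A cells, an E14 derivative with an EGFP reporter at the Nanog locus. Input and enriched libraries therefore differ in line, and a difference in copy number at a Tet gene cannot be told apart from enrichment in any ratio to input. No second library of any group was analysed, so differences between libraries were not tested and stand without a check by replicates. Intervals in parentheses are exact 95% intervals that cover counting error only.

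On chromosomes 1 to 19 and X, hMeDIP held 18519740 reads, MeDIP 10442811, the 600 mM eluate 10462783, the 800 mM eluate 7507520 and the input 18676265. Values are reads-per-million (RPM) of these totals, or ratios of RPM. For scale, the autosomes were divided into 80 kb windows with at least 200 input reads, of which there were 29296. Their median ratio to input lay between 0.707 for the 800 mM eluate and 0.852 for MeDIP, and their median 5hmC to 5mC antibody ratio was 1.01.

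TET enzymes use iron and 2-oxoglutarate to oxidise the methyl group of 5mC to 5hmC and then to further oxidised bases. Tet1 and Tet2 are known as the members expressed in mouse embryonic stem cells, while Tet3 is known for its role in the oocyte and the zygote and in neurons. TET1 and the long form of TET3 carry a CXXC zinc finger, a domain that binds CpG-rich DNA, and TET2 lacks it. Gene expression was not measured in these libraries.

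All 3 genes are on the minus strand in RefSeq, so the high-coordinate end of each window is called the promoter end here, although the starts themselves were not placed in mm9. The RefSeq promoters (250 bases before to 50 after the transcript start) differ in CpG content, which bears on MethylCap, since a methyl-CpG binder holds DNA that has CpGs. They are given 5′ to 3′ on the minus strand of GRCm38.p6 with each CpG in capitals. The Tet1 promoter (gene 52463) is at chr10:62887275-62887574, that of Tet2 (gene 214133) at chr3:133544341-133544640 and that of Tet3 (gene 194388) at chr6:83441629-83441928.
Tet1: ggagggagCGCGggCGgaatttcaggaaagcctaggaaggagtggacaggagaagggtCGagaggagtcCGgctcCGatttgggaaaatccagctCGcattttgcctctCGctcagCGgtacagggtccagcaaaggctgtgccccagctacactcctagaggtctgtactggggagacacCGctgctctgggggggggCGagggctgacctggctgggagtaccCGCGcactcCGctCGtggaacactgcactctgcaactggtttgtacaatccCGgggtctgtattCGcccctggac
Tet2: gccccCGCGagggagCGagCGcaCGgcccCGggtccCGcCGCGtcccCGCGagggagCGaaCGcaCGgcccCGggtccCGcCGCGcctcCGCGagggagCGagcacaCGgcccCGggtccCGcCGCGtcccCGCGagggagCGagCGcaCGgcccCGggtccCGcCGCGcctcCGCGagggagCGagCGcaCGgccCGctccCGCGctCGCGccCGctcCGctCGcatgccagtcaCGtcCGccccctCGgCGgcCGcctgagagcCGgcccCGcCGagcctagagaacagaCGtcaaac
Tet3: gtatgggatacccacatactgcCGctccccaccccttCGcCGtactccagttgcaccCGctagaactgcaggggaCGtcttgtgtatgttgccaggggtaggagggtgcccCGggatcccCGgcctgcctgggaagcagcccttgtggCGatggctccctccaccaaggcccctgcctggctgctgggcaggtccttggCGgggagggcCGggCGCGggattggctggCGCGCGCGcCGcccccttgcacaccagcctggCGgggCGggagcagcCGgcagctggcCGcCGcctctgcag

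The Tet2 promoter is the densest in CpG. It holds 57 CpGs in 300 bases, 81.3% G+C and 1.17 times the CpGs that its base composition would give, and 0.152% of the 32851 RefSeq promoters hold as many. The Tet3 promoter holds 22 CpGs, a number reached by 23.1% of promoters. The Tet1 promoter holds 17 CpGs, a number reached by 31.4%, and the median over all promoters was 7. In the RefSeq table the Tet1 gene is 5900 bases longer than its mm9 window, so its start may lie in the upstream flank. The listed Tet3 transcript starts 15530 bases inside the end of its gene, so a start of Tet3 also lies well within the window.

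The 3 genes fell into different patterns. Tet1 and Tet2 carried more 5hmC antibody reads than 5mC antibody reads relative to depth, while Tet3 was rich in all 4 enriched libraries and slightly richer in the 5mC antibody. Over the Tet1 window there were 1656 reads in hMeDIP, 442 in MeDIP, 655 at 600 mM, 410 at 800 mM and 961 in the input. Over Tet2 there were 1064, 399, 409, 306 and 870 reads in the same order. Over Tet3 there were 1301, 836, 1479, 934 and 701 reads. Tet1 had the most hMeDIP reads of the family, and Tet3 the most in MeDIP and in both eluates. In RPM per kb, the hMeDIP level was 1.16 at Tet1, 0.701 at Tet2 and 0.717 at Tet3. The MeDIP level was 0.550 at Tet1, 0.466 at Tet2 and 0.817 at Tet3. Input itself ranged from 0.668 RPM per kb at Tet1 to 0.383 at Tet3, so the ratios to input of Tet3 rest on the fewest input reads per kb.

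The 5hmC antibody was above input at all 3 genes. The ratio to input was 1.74 at Tet1 (1.60 to 1.88), 1.23 at Tet2 (1.13 to 1.35) and 1.87 at Tet3 (1.71 to 2.06). Of the 80 kb windows, 12.7% were at or above the Tet1 value, 29.2% at or above that of Tet2 and 10.0% at or above that of Tet3. The ratio of Tet1 was 1.41 times that of Tet2 (1.25 to 1.59). Tet1 and Tet3 did not separate beyond counting error, at 0.929 times (0.821 to 1.05).

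The 5mC antibody divided the family differently. It was below input at Tet1, with a ratio of 0.823 (0.733 to 0.922), and at Tet2, with 0.820 (0.727 to 0.925), both close to the median of the 80 kb windows. At Tet3 it was above input, with 2.13 (1.93 to 2.36), a value that 7.83% of windows reached. Tet1 and Tet2 did not differ beyond counting error (ratio 1.00, interval 0.849 to 1.19), and both were well under Tet3. Tet1 was at 0.386 times the Tet3 ratio (0.331 to 0.450) and Tet2 at 0.385 times (0.328 to 0.451).

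MethylCap placed Tet3 further from the other members. In the 600 mM eluate the ratio to input was 3.77 at Tet3 (3.44 to 4.13), 1.22 at Tet1 (1.10 to 1.35) and 0.839 at Tet2 (0.744 to 0.945). In the 800 mM eluate it was 3.32 at Tet3 (3.0 to 3.66), 1.06 at Tet1 (0.943 to 1.19) and 0.875 at Tet2 (0.766 to 0.998). Of the 80 kb windows, 1.80% reached the Tet3 value at 600 mM and 3.41% at 800 mM. The order Tet3, Tet1, Tet2 held in both eluates, with the Tet1 to Tet2 step at 1.45 times (1.24 to 1.70) at 600 mM and 1.21 times (1.02 to 1.45) at 800 mM. Whether Tet1 and Tet2 lie above or below input in MethylCap depends on the scaling and extent. With the 10 kb flanks included the Tet1 ratio at 600 mM was 0.990, and with each library scaled to a median bin ratio of 1 the Tet2 ratio was 1.11 at 600 mM and 1.24 at 800 mM.

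**Figure D1:**
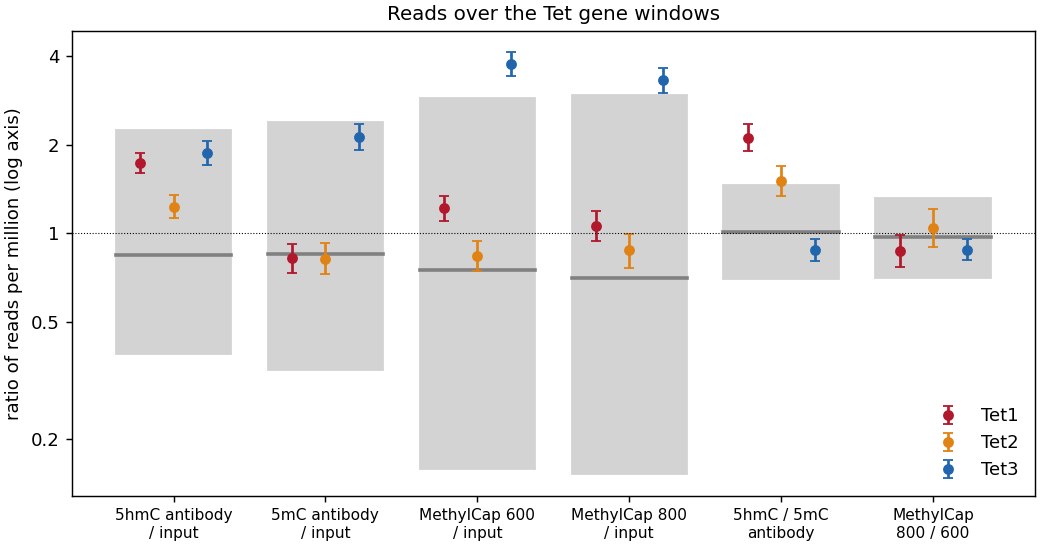
Ratio of RPM (log axis) over the Tet1, Tet2 and Tet3 windows for the 4 enriched libraries over input, for the 5hmC over the 5mC antibody and for the 800 mM over the 600 mM eluate; points are the ratios of 1 library pair, bars the exact 95% counting intervals, and grey boxes the 5th to 95th percentile of 80 kb autosomal windows with a line at their median. Tet3 is the only gene above the grey box in the MethylCap columns, and Tet1 and Tet2 are the genes above it in the antibody column (2.11 and 1.50 against a 95th percentile of 1.46).

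Set directly against each other, without the input, the antibodies gave an order of Tet1, Tet2, Tet3. The 5hmC to 5mC ratio was 2.11 at Tet1 (1.90 to 2.35), a value reached by 0.167% of the 80 kb windows. It was 1.50 at Tet2 (1.34 to 1.69), reached by 3.89% of windows. At Tet3 it was 0.878 (0.804 to 0.958), and 26.4% of windows were lower. The steps exceeded counting error. Tet1 was 1.41 times Tet2 (1.20 to 1.65) and 2.41 times Tet3 (2.10 to 2.77), and Tet2 was 1.71 times Tet3 (1.48 to 1.99). This ratio kept its direction, and moved by less than its interval, at each gene under the 4 other settings that were tried. Most of these had little room to change it. A flag deposited with each read was 0 throughout both antibody libraries, so choosing reads by it changed nothing. Scaling divided every gene by the same 1.021, and a 100 bp shift moved only reads near the window ends. Adding the 10 kb flanks gave 2.14 at Tet1, 1.49 at Tet2 and 0.832 at Tet3. The antibodies differ in maker and their yields were not calibrated to each other, so the ratio orders genes and does not give the amount of 5hmC relative to 5mC.

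The salt steps hardly separated the genes. The 800 mM to 600 mM ratio was 0.872 at Tet1 (0.769 to 0.989), 1.04 at Tet2 (0.896 to 1.21) and 0.880 at Tet3 (0.810 to 0.956), beside a median of 0.972 over the 80 kb windows. No pair of genes differed in it beyond counting error, and the widest pair, Tet1 against Tet2, stood at 0.837 (0.687 to 1.02).

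The balance of the antibodies shifted along each gene, read by distance from the promoter end into it. In Tet1 the 5hmC to 5mC ratio was 4.06 over the first 5 kb (144 against 20 reads; 2.53 to 6.85), 2.46 from 5 to 10 kb, 2.09 from 10 to 20 kb, 2.85 from 20 to 40 kb and 1.68 beyond 40 kb. In Tet2 it was lower in each successive class, from 4.65 over the first 5 kb, which rests on 33 against 4 reads (1.66 to 18.1), through 2.62, 2.22 and 1.61 to 1.29 beyond 40 kb (1.11 to 1.50). In Tet3 it lay between 1.29 and 1.64 up to 40 kb and was 0.691 beyond (770 against 628 reads; 0.621 to 0.769). Relative to depth, Tet3 thus changed from a 5hmC antibody excess in the 40 kb next to the promoter end to a 5mC antibody excess in the rest of the gene.

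Every gene had a higher ratio in its first 40 kb than beyond, a division chosen after the profile was seen. In Tet1 the first 40 kb had 2.78 and the rest 1.68, a difference of 1.66 times (1.33 to 2.07). In Tet2 the values were 1.88 and 1.29, or 1.46 times (1.14 to 1.86). In Tet3 they were 1.44 and 0.691, or 2.08 times (1.71 to 2.54). Past the far end of the genes, the 10 kb flank gave 2.54 at Tet1 (1.51 to 4.50), 1.24 at Tet2 (0.894 to 1.75) and 0.552 at Tet3 (0.436 to 0.699). The Tet3 flank, with 145 hMeDIP and 148 MeDIP reads, thus carried on the 5mC antibody excess of the far part of the gene.

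**Figure D2:**
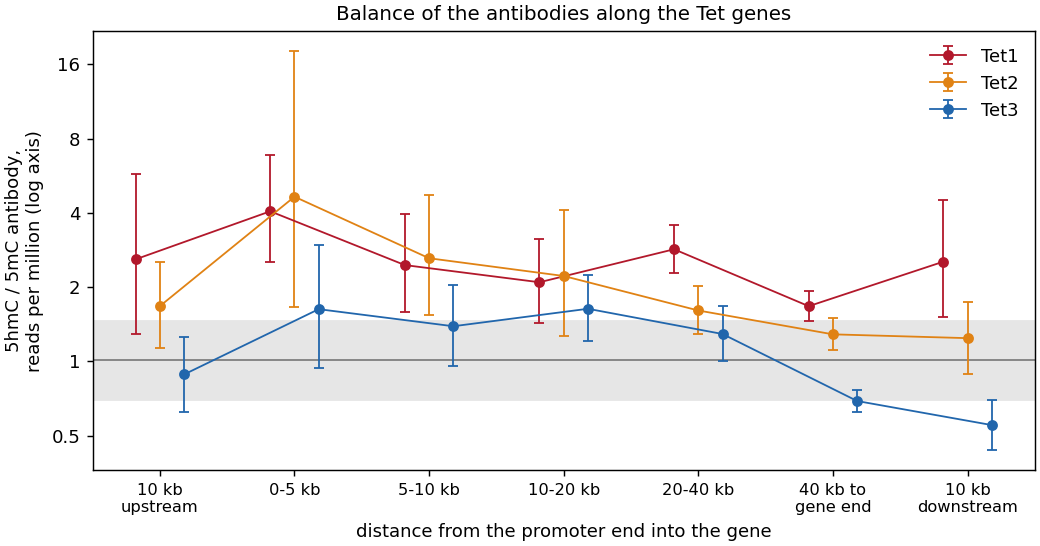
Ratio of 5hmC to 5mC antibody RPM (log axis) by distance class from the promoter end into Tet1, Tet2 and Tet3, with the 10 kb flanks at either side; points are ratios of 1 library pair, bars exact 95% counting intervals, and the grey line and band the median and the 5th to 95th percentile of 80 kb autosomal windows. The Tet1 points lie above the band in every class, but some of their intervals reach into it. The classes are shorter than 80 kb and so scatter more than the windows of the band. Tet3 drops to 0.691 beyond 40 kb and 0.552 in the downstream flank.

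At the promoter end, taken as the 3 bins inside and the 2 bins outside the window's end, the genes differed. At Tet2, whose RefSeq promoter is the densest in CpG, the 5 kb were nearly empty in every library but hMeDIP and input. There were 39 reads in hMeDIP, 1 in MeDIP, 4 at 600 mM, 1 at 800 mM and 68 in the input. The ratio to input was 0.0263 in MeDIP (0.000656 to 0.152), 0.105 at 600 mM (0.0278 to 0.281) and 0.0366 at 800 mM (0.000913 to 0.211). In hMeDIP it was 0.578 (0.380 to 0.870). Against the body, that is the other bins of the window, the promoter end was at 0.0303 times in MeDIP (0.000754 to 0.176), 0.119 times at 600 mM (0.0314 to 0.323), 0.0395 times at 800 mM (0.000984 to 0.230) and 0.448 times in hMeDIP (0.291 to 0.682).

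The hMeDIP reads at the promoter end of Tet2 were not spread evenly. The 3 bins inside held 4, 4 and 6 reads against 26, 19 and 5 input reads, from the inside outward, and the 2 bins outside held 13 and 12 reads against 9 input reads each. These outer bins had no read in MeDIP or in either eluate. With 0 of 10442811 MeDIP reads in them, a count of 0 allows up to 3 reads in each bin. Where the promoter end was narrowed to 1 bin on either side, the hMeDIP value against the body was 1.11, above rather than below 1. Over the whole promoter end the 5hmC to 5mC ratio was 22, but its interval ran from 3.72 to 891 because MeDIP had 1 read, and with 5 bins on either side its excess over the body fell from 14.8 times (2.48 to 600.2) to 2.25 times.

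Tet1 had the opposite arrangement in MethylCap at the end of its window. The RefSeq gene is 5900 bases longer than that window, so these bins may lie inside Tet1 rather than at its start. The promoter end of Tet1, as defined here, held 136 hMeDIP reads, 17 MeDIP reads, 138 reads at 600 mM, 46 at 800 mM and 76 input reads. The ratio to input at 600 mM was 3.24 (2.43 to 4.35) against 1.01 in the body, a difference of 3.21 times (2.36 to 4.40). At 800 mM it was 1.51 against 0.985, or 1.53 times (1.02 to 2.28). That excess was not kept with 5 bins on either side, where it was 0.992 times, while the 600 mM excess was then 1.79 times and, with 1 bin on either side, 6.46 times. In MeDIP the promoter end was lower than the body, with 0.400 against 0.834, or 0.480 times (0.263 to 0.832). In hMeDIP promoter end and body did not differ beyond counting error, with 1.81 against 1.68, or 1.07 times (0.795 to 1.46). The 5hmC to 5mC ratio was higher at the promoter end of Tet1, with 4.51 (2.72 to 7.97) against 2.01, or 2.24 times (1.33 to 4.00).

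Most 600 mM reads at the promoter end of Tet1 came from 1 bin, chr10:62342001-62343000, the last inside the window. It held 111 reads at 600 mM but 22 at 800 mM, 8 in MeDIP, 51 in hMeDIP and 14 in the input. Relative to depth the 600 mM eluate had 3.62 times the 800 mM reads there (2.28 to 6.01). The next bin inward, chr10:62341001-62342000, held 41 hMeDIP reads against 2 in MeDIP, 14 at 600 mM, 12 at 800 mM and 9 in the input. Its 5hmC to 5mC value, with 0.5 RPM added to each side, was 3.92, the highest of the Tet1 window. The bins just outside dropped to 6 and 10 hMeDIP reads, 1 and 4 MeDIP reads, 4 and 0 reads at 600 mM and 0 and 1 at 800 mM, against 17 and 20 input reads.

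Beyond the window's end, Tet1 had a stretch poor in every enriched library. The RefSeq gene is 5900 bases longer than the window, so this stretch may hold part of Tet1 and its start. Over the 22 kb upstream of the window's end, an extent chosen from the profile, there were 105 hMeDIP reads, 27 MeDIP reads, 38 at 600 mM, 34 at 800 mM and 336 in the input. The ratios to input were 0.315 in hMeDIP (0.251 to 0.394), 0.144 in MeDIP (0.0933 to 0.213), 0.202 at 600 mM (0.140 to 0.283) and 0.252 at 800 mM (0.172 to 0.359). From 20 to 40 kb upstream they were back at 1.45 in hMeDIP and 0.946 in MeDIP. The same 22 kb at Tet2 gave 1.42 in hMeDIP, 0.903 in MeDIP, 0.909 at 600 mM and 0.704 at 800 mM, and at Tet3 1.52, 1.80, 1.84 and 1.71. The nearest 10 kb upstream of Tet2 were under input as well, at 0.801 in hMeDIP (0.613 to 1.04), 0.478 in MeDIP, 0.627 at 600 mM and 0.646 at 800 mM. In the RefSeq table, Slc25a16 and Dna2 are the protein-coding neighbours on that side of Tet1.

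At Tet3 the promoter end resembled the body in hMeDIP and was poorer than the body in MethylCap. It held 65 hMeDIP reads, 26 MeDIP reads, 42 at 600 mM, 28 at 800 mM and 37 input reads. Against the body the values were 0.944 times in hMeDIP (0.614 to 1.47), 0.583 times in MeDIP (0.336 to 1.00), 0.535 times at 600 mM (0.333 to 0.865) and 0.565 times at 800 mM (0.330 to 0.959). Even so, all 4 libraries were above input there, from 1.26 in MeDIP to 2.03 at 600 mM, with the MeDIP interval reaching below 1 (0.731 to 2.13). The 5hmC to 5mC ratio was 1.41 at the promoter end (0.882 to 2.32) and 0.871 in the body, or 1.62 times (1.00 to 2.68), and with 1 bin on either side that turned to 0.721 times. Narrowing also took the hMeDIP value to 0.481 times and the 600 mM value to 0.330 times. These narrow windows hold few reads, and Tet3 has a RefSeq start 15530 bases further in.

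**Figure D3:**
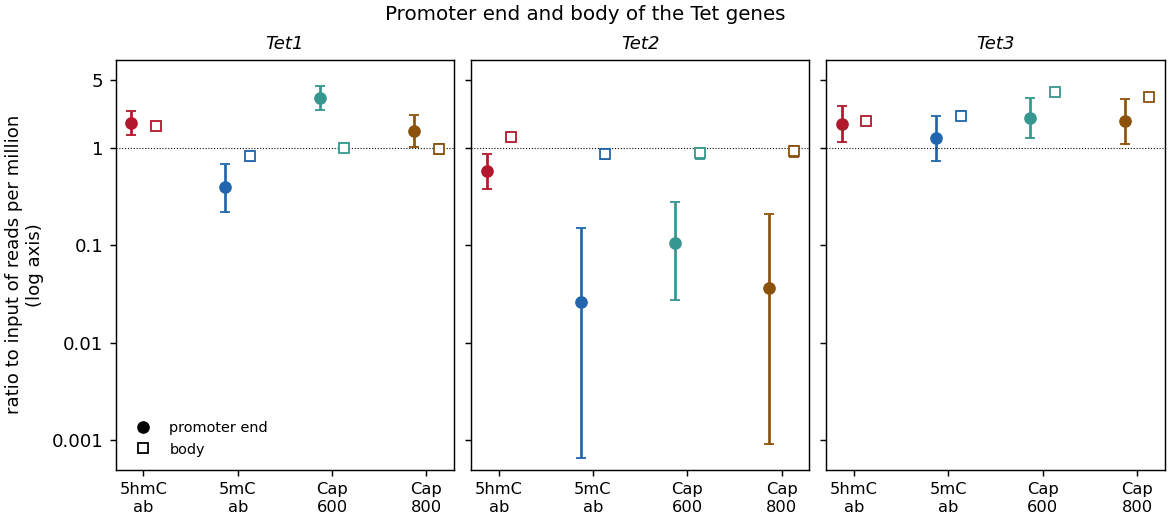
Ratio to input of RPM (log axis) at the promoter end (filled circles, 5 kb) and in the body (open squares, the other bins of the window) of Tet1, Tet2 and Tet3 in hMeDIP (5hmC ab), MeDIP (5mC ab) and the MethylCap eluates (Cap 600, Cap 800), with exact 95% counting intervals from 1 library each. At Tet2 the promoter end drops to 0.0263 in MeDIP, while at Tet1 it rises to 3.24 in the 600 mM eluate.

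The profile inland of the promoter ends also differed. Tet2 had another poor stretch further in. From 5 to 10 kb hMeDIP was at 1.17 (0.836 to 1.65), while MeDIP was at 0.447 and the eluates at 0.604 and 0.512. Between 10 and 20 kb into the gene the ratio to input was 0.517 in hMeDIP, 0.233 in MeDIP, 0.290 at 600 mM and 0.324 at 800 mM, and beyond 40 kb it was 1.72, 1.34, 1.26 and 1.49. Tet2 was thus above input in all 4 libraries in its far part, although its whole window was below input in 3 of them. In Tet3 the far part was also richer, most of all in MethylCap. From 20 to 40 kb its ratios were 1.34 in hMeDIP, 1.03 in MeDIP, 1.58 at 600 mM and 1.50 at 800 mM. Beyond 40 kb they were 1.85, 2.68, 5.05 (4.52 to 5.66) and 4.32 (3.83 to 4.89), and in the downstream flank 1.76, 3.19, 4.19 and 4.17. The richest hMeDIP class of Tet3 was at 5 to 10 kb, with 3.0 (2.01 to 4.56).

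Single bins were then compared with input after adding 0.5 RPM to both, and a ratio of 3 or more was called enriched. Over all bins with a read, 1.93% were enriched in hMeDIP, 2.5% in MeDIP, 3.33% at 600 mM and 4.27% at 800 mM. Tet1 was above this background in hMeDIP and near it in the other libraries, with 4 of 77 bins in hMeDIP (5.20%), 1 in MeDIP (1.30%), 2 at 600 mM (2.60%) and 3 at 800 mM (3.90%). Its median bin in hMeDIP was at 1.27, with bins from 0.509 to 5.43. Tet2 had 7 of 81 bins in hMeDIP (8.64%), 4 in MeDIP (4.94%), 5 at 600 mM (6.17%) and 6 at 800 mM (7.41%). Its median bin in hMeDIP was at 0.903. Tet3 had 5 of 97 bins in hMeDIP (5.16%) and 7 in MeDIP (7.22%), but 15 at 600 mM (15.5%) and 18 at 800 mM (18.6%). The order of the genes by enriched hMeDIP bins turned with the settings. With 0.1 RPM added the shares were 14.3% in Tet1, 12.4% in Tet2 and 18.6% in Tet3, and at 2-fold they were 16.9%, 12.4% and 17.5%.

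Between the antibodies, 3.69% of all bins were at least 2-fold higher in 5hmC and 3.19% at least 2-fold higher in 5mC. In Tet1, 20 bins (26.0%) were higher in 5hmC and 0 in 5mC, and 67 of 77 bins had the higher RPM in hMeDIP, against 49.9% of all bins. In Tet2, 6 bins (7.41%) were higher in 5hmC and 0 in 5mC, and 59 of 81 had the higher RPM in hMeDIP. In Tet3 both directions occurred, with 6 bins (6.19%) higher in 5hmC and 11 (11.3%) higher in 5mC, and hMeDIP had the higher RPM in 43 of 97. The median bin was at 1.50 in Tet1, 1.27 in Tet2 and 0.949 in Tet3. At 3-fold, the Tet1 share was 6.49% beside 0.481% of all bins. Tet3 had 0 bins in either direction, where 0.481% of all bins were higher in 5hmC and 0.406% in 5mC. With 0.1 RPM added instead of 0.5, the shares higher in 5hmC were 49.4% in Tet1, 42.0% in Tet2 and 20.6% in Tet3, beside 19.2% of all bins.

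**Figure D4:**
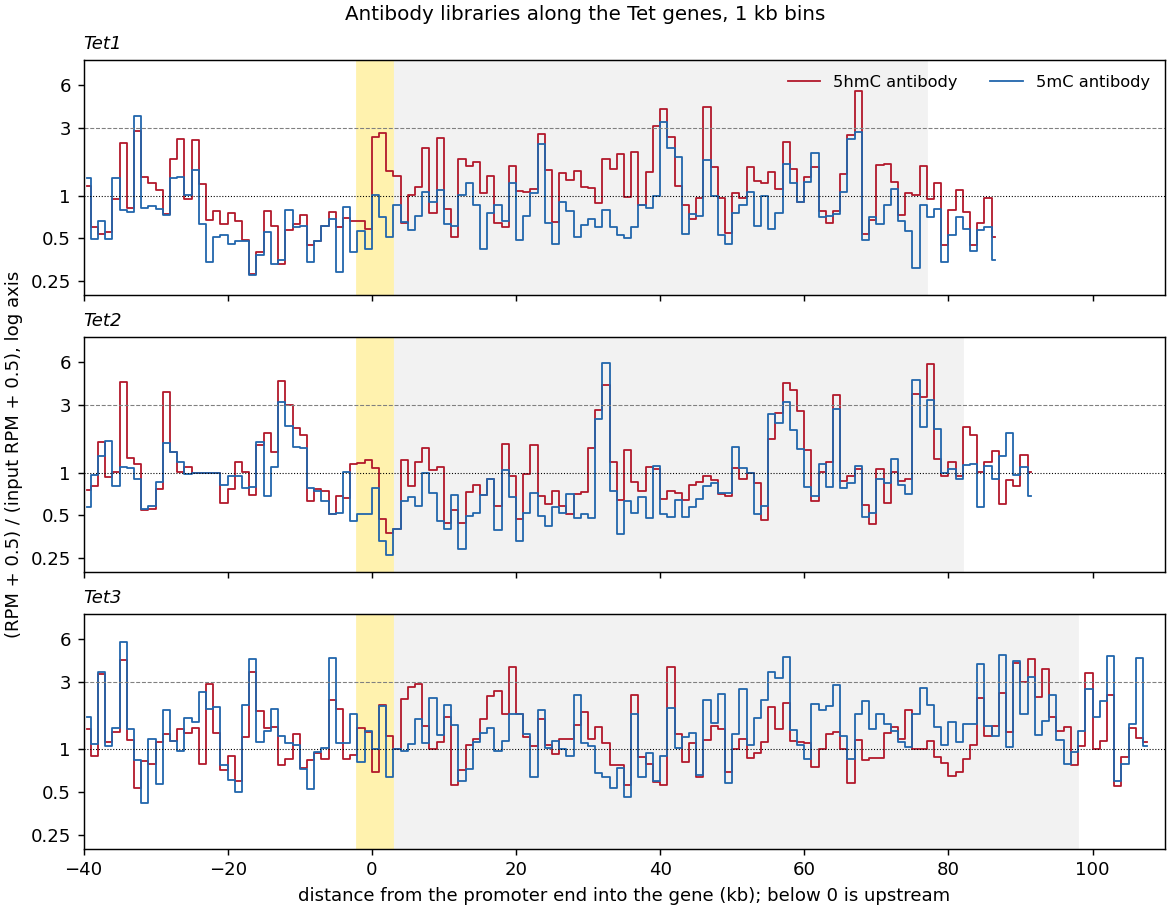
Ratio to input with 0.5 RPM added, log axis, in 1 kb bins along Tet1, Tet2 and Tet3 for the 5hmC and the 5mC antibody; the horizontal axis is the distance in kb from the promoter end, yellow marks the promoter end, grey the body, dotted and dashed lines ratios of 1 and 3, and each line is 1 library. In Tet1 the 5hmC antibody has the higher RPM in 67 of 77 bins (49.9% of all bins), and in Tet2 the lines share most of their peaks.

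In Tet2 the enriched bins stood in a few clusters that the libraries shared. Of its 7 hMeDIP bins, 4 were enriched in MeDIP, 4 at 600 mM and 4 at 800 mM, and 2 in all 4 libraries. In MeDIP those 4 were all of its enriched bins. How often enriched bins overlap over all chromosomes was not computed, so these counts have no background. All 4 ratios also use the same input, so a low input count in a bin raises all of them together. Bin chr3:133130001-133131000, for example, held 4 input reads, beside a median of 7 per covered bin. The longest hMeDIP run was chr3:133130001-133133000, 75 to 78 kb into the gene, with 152 reads against 15 input reads and a raw ratio of 10.2 (6.0 to 18.7). A second run lay at chr3:133149001-133151000, 57 to 59 kb in, with 103 against 12 reads (8.66, 4.75 to 17.3), and the 800 mM eluate had a run over the same place (chr3:133149001-133152000, 70 against 19 reads, 9.17, 5.46 to 16.1). Within it, chr3:133150001-133151000 held 51 hMeDIP reads, 20 MeDIP reads, 21 at 600 mM, 29 at 800 mM and 5 input reads.

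A further Tet2 bin, chr3:133175001-133176000, 32 to 33 kb in, was the richest of the gene in MeDIP. It held 54 hMeDIP reads, 45 MeDIP reads, 25 at 600 mM, 7 at 800 mM and 6 input reads, with ratios of 4.16, 5.86, 3.52 and 1.74. The antibodies and the 600 mM eluate were high there and the 800 mM eluate was not past 3-fold. At the far end the order was other. Bin chr3:133129001-133130000, 78 to 79 kb in, held 35 reads at 800 mM and 21 at 600 mM but 17 in hMeDIP and 19 in MeDIP, against 12 input reads.

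Across the 82 bins of Tet2, log2(RPM + 0.5) levels in hMeDIP and MeDIP had a Pearson correlation of 0.805 (Spearman 0.715), against 0.581 (0.428) over 77 bins in Tet1 and 0.384 (0.319) over 98 bins in Tet3. Bins of a gene lie side by side and share mappability and CpG content, so these are descriptions of the profiles. The eluates followed each other in all 3 genes, with 0.804 in Tet1, 0.849 in Tet2 and 0.830 in Tet3. In Tet3, hMeDIP was less like the 600 mM eluate (0.429) than MeDIP was (0.578), whereas in Tet1 it was more like it (0.739 against 0.621).

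In Tet1 the highest 5hmC bin was chr10:62275001-62276000, 67 to 68 kb in, with 111 hMeDIP reads against 30 in MeDIP, 45 at 600 mM, 26 at 800 mM and 13 in the input, and a ratio of 5.43. All 4 libraries were high there, with 2.82 in MeDIP just under the threshold. A run of 2 enriched hMeDIP bins lay at chr10:62302001-62304000, 39 to 41 kb in, with 110 against 18 input reads (6.16, 3.72 to 10.8), and its bin chr10:62302001-62303000 was also the 1 bin of Tet1 enriched in MeDIP (25 against 7 reads, ratio 3.31). Nearer the promoter end, the bin chr10:62308001-62309000, 34 to 35 kb in, held 38 hMeDIP reads and 2 MeDIP reads. Its 5hmC to 5mC value of 3.69 was an extreme of the window, whose median bin was at 1.50. The bin of the window lowest in 5hmC relative to 5mC, chr10:62300001-62301000, held 13 hMeDIP and 15 MeDIP reads (0.621).

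In Tet3 the strongest bins were MethylCap bins, and they were 2 narrow peaks and a broad block. Bin chr6:83354001-83355000, 55 to 56 kb in, held 152 reads at 600 mM, 43 at 800 mM, 19 in MeDIP, 15 in hMeDIP and 3 in the input, with a ratio of 22.8 at 600 mM. Bin chr6:83325001-83326000, 84 to 85 kb in, held 154, 50, 29, 26 and 6 reads in that order, with 18.5 at 600 mM. Both antibodies were far lower there, at 2.32 in hMeDIP and 3.99 in MeDIP in the second bin. The 3 bins chr6:83352001-83355000 were a run in MeDIP (69 against 13 input reads, 9.49, 5.20 to 18.7) and at 800 mM (100 reads, 19.1, 10.7 to 37.2).

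The broad block of Tet3 lay 89 to 96 kb in, near the far end of the gene. At 600 mM, 5 consecutive bins were enriched (chr6:83314001-83319000, 245 against 52 reads, 8.41, 6.21 to 11.6), and at 800 mM 6 (chr6:83315001-83321000, 181 against 47 reads, 9.58, 6.92 to 13.5). The highest hMeDIP bin of Tet3 stood in it, chr6:83318001-83319000, with 65 hMeDIP reads, 26 in MeDIP, 57 at 600 mM, 29 at 800 mM and 8 in the input. All 4 libraries exceeded 3-fold in that bin. Of the 5 enriched hMeDIP bins of Tet3, 4 were enriched at 600 mM, which is 4 of its 15, and 2 in MeDIP, which is 2 of its 7. As in Tet2, these overlaps have no background over all bins.

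Some Tet3 bins 17 to 20 kb in had 5hmC antibody reads and few MethylCap reads. Bin chr6:83390001-83391000, 19 to 20 kb in, held 45 hMeDIP reads, 9 MeDIP reads, 7 at 600 mM, 1 at 800 mM and 5 in the input, with 3.82 in hMeDIP and 0.825 at 800 mM. Bin chr6:83392001-83393000, 17 to 18 kb in, held 25, 2, 0, 3 and 4 reads and had the highest 5hmC to 5mC value of the gene, 2.68. The opposite extreme lay past the far end, chr6:83303001-83304000, with 15 hMeDIP and 45 MeDIP reads, 41 at 600 mM, 25 at 800 mM and 11 in the input, a 5hmC to 5mC value of 0.272. Bola3 is the next gene on that side in the RefSeq table.

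**Figure D5:**
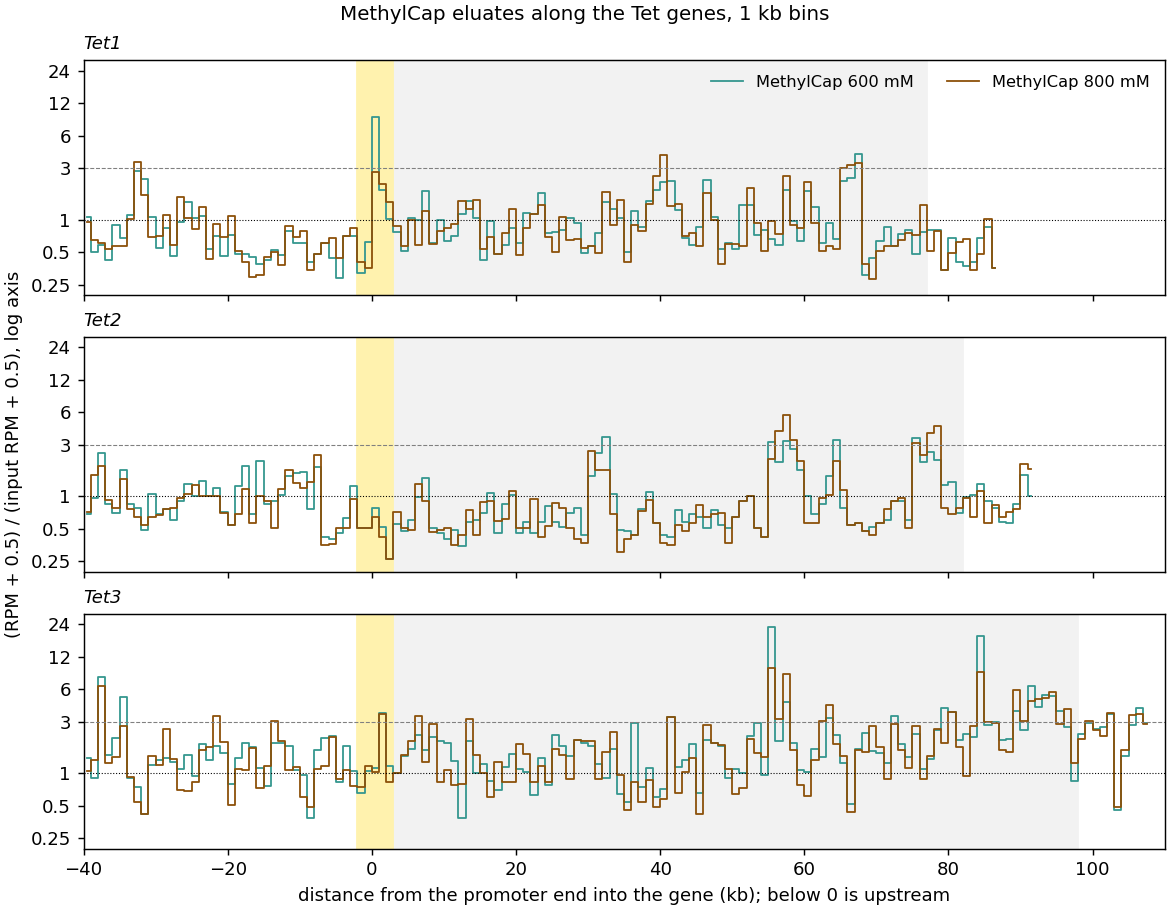
Ratio to input with 0.5 RPM added, log axis, in 1 kb bins along Tet1, Tet2 and Tet3 for the MethylCap eluates at 600 and 800 mM NaCl; the horizontal axis is the distance in kb from the promoter end, yellow marks the promoter end, grey the body, dotted and dashed lines ratios of 1 and 3, and each line is 1 library. The Tet1 line at 600 mM peaks at 8.89 in the promoter end, Tet2 is low there, and Tet3 has peaks of 22.8 and 18.5 in its far part.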

How the data were processed

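The deposited files list 1 aligned 35-bp read per line with its mm9 position and strand. Reads were aligned with BWA 0.5.8, per the submitters' processing notes. The deposited read count of each line was used as 1 read. The authors' deposited column 4, a flag of 0 or 1 without a stated meaning, was 1 for 7.88 to 8.38% of reads in MethylCap and input and 0 throughout MeDIP and hMeDIP; it was used only in an alternative. The antibody libraries and the input hold at most 1 read per position and strand, and MethylCap at most 2; whether that limited peak heights was not tested.

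Each read was placed in a 1 kb bin by its midpoint, and RPM were computed from the reads on chromosomes 1 to 19 and X, with Python 3.11.15, numpy 2.4.6, pandas 2.3.3 and scipy 1.17.1. Window ratios are raw; bin ratios add 0.5 RPM to each side. Intervals are exact Clopper-Pearson bounds of the conditional binomial, or of the odds ratio for a ratio of ratios. Reads carry no molecular identifiers and are not independent molecules. The intervals and the 3-fold call of bins were tested on simulated read counts, and the placing of reads in bins was not. With a median of 7 input reads per covered bin, single-bin ratios are imprecise.

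Bins were named by rule: those of the promoter end, the 2 highest per enriched library with at least 5 input reads and 10 library reads, and the 2 highest and 2 lowest in 5hmC to 5mC with at least 20 reads of both antibodies. Runs of enriched bins, the bin chr6:83354001-83355000 (3 input reads), the 40 kb division and the 22 kb upstream stretch of Tet1 were chosen after their values were seen. The genes, windows and lists were chosen with earlier results of these data known. The RefSeq tables gave promoters, names and strands only. Alternatives were read choice, a 100 bp shift, scaling, flanks, promoter extent, pseudocount, bin size and threshold.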

Additional observations from a re-analysis of the deposited data

How the results depend on the processing

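Of 240 recomputed values, 168 stayed within their interval or 1.5 times, 66 moved, and 6 whose interval excluded 1 crossed to the other side of 1. Values whose interval held 1 were not counted as reversed, although some of them crossed 1 too. The 5hmC to 5mC antibody ratio and the 800 to 600 mM ratio over the gene windows kept all 12 values each. For the antibody ratio, the choice of reads by column 4 returned the same values by construction. Scaling divided the 800 to 600 mM ratio by 1.0, which left it as it was. No paired analysis was possible because each group has 1 library, and for the same reason no library could be left out. Where nothing else is said, the cause was not tested. Scaling each library to a median bin ratio of 1 raises all ratios by construction, since the medians were 0.839 in hMeDIP, 0.834 in MeDIP, 0.757 at 600 mM and 0.704 at 800 mM. It gave, for hMeDIP, MeDIP, 600 mM and 800 mM, ratios of 2.07, 0.986, 1.61 and 1.51 at Tet1, of 1.47, 0.983, 1.11 and 1.24 at Tet2, the last pair on the other side of 1, and of 2.23, 2.56, 4.98 and 4.71 at Tet3. Enriched bins then made up 11.7% in hMeDIP, 2.60% in MeDIP and 9.09% at 800 mM in Tet1, 9.88% at 600 mM in Tet2, and 8.25% in hMeDIP and 29.9% at 800 mM in Tet3, beside backgrounds of 3.03, 3.76, 5.88 and 7.71%. With the 10 kb flanks, Tet1 had 1.46 in hMeDIP, 0.682 in MeDIP, and 0.990 at 600 mM and 0.876 at 800 mM, both now under 1.

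With 1 bin on either side of the promoter end, the promoter end against the body was 6.46 at Tet1 in the 600 mM eluate and 1.11 at Tet2 in hMeDIP, reversed. At 800 mM Tet2 had no read there, and 3 reads in its place give an upper limit of 0.606. At Tet3 it was 0.481 in hMeDIP, 0.330 at 600 mM and, for 5hmC to 5mC, 0.721, reversed. With 5 bins on either side it was 0.729 in hMeDIP, 1.79 at 600 mM and 0.992 at 800 mM at Tet1, the last reversed. The hMeDIP value also crossed 1, but its main interval held 1. At Tet2 it was 0.215 in MeDIP and 2.25 for 5hmC to 5mC.

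Bin counts depended most on the settings, and the backgrounds moved with them. With 0.1 RPM added, enriched bins in hMeDIP, MeDIP, 600 mM and 800 mM were 14.3, 3.90, 9.09 and 9.09% in Tet1 and 18.6, 22.7, 38.1 and 33.0% in Tet3, beside 7.43, 8.42, 9.66 and 10.3% of all bins. In Tet2, MeDIP, 600 mM and 800 mM had 9.88, 13.6 and 12.4%. Bins 2-fold higher in 5hmC were 49.4% in Tet1, 42.0% in Tet2 and 20.6% in Tet3 (19.2% of all bins), and those higher in 5mC 2.47% in Tet2 and 27.8% in Tet3 (13.2%). With 500 bp bins, Tet1 had 9.74, 3.25, 4.55 and 6.49% enriched, beside 3.22, 3.96, 4.85 and 5.69% of all bins, and 1.95% higher in 5mC, and Tet2 12.7% higher in 5hmC, beside 5.82 and 5.96% of all bins. At 2-fold over input, 6.62, 7.71, 9.36 and 10.1% of all bins were enriched. Tet1 had 16.9, 7.79, 9.09 and 11.7%, and Tet3 had 17.5, 22.7, 39.2 and 34.0%. Tet2 had 12.4, 13.6 and 13.6% in MeDIP, 600 mM and 800 mM, and 12.4% in hMeDIP here and with 0.1 RPM. The 800 mM share of Tet1 stayed near background in all of these settings. It was slightly above it at 2-fold, with 500 bp bins and with median scaling, and slightly below it with 0.1 RPM. At 3-fold between antibodies, 6.49% of Tet1, 1.24% of Tet2 (1 bin) and 0.0% of Tet3 bins were higher in 5hmC, beside 0.481% of all bins. In 5mC 0.0% of Tet3 bins were higher, beside 0.406% of all bins. With backgrounds this low, the Tet2 and Tet3 counts are near what background gives. Reads with 0 in column 4 alone gave 6.49% enriched at 800 mM in Tet1, and a 100 bp shift gave 3.66% at 600 mM in Tet2. The share of all bins was not computed for either setting, so these values have no background. Depth limits the promoter end of Tet2, where MeDIP and the 800 mM eluate had 1 read each.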

Other observations

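The flanking DNA of the family was followed to 40 kb upstream of the promoter ends. From 10 to 20 kb upstream of Tet2 hMeDIP had 191 reads against 70 in the input, a ratio of 2.75 (2.08 to 3.67), the highest 10 kb class of that gene. MeDIP was at 1.74 there (1.23 to 2.46), the 600 mM eluate at 1.48 (1.03 to 2.13) and the 800 mM eluate at 0.853 (0.513 to 1.37). The 800 to 600 mM ratio was 0.577 in these 10 kb (0.343 to 0.943). Upstream of Tet3, from 20 to 40 kb, all 4 enriched libraries were above input, at 1.80 in hMeDIP, 2.31 in MeDIP, 2.54 at 600 mM and 2.35 at 800 mM, and the 5hmC to 5mC ratio was 0.781 (0.646 to 0.946). Tet3 thus lay among DNA that was rich in the 5mC antibody on both sides.

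The 3 bins of the family with the most 600 mM reads were looked at by strand, a choice made after their values were seen. In the Tet3 bin chr6:83325001-83326000 there were 70 plus-strand and 84 minus-strand reads, and the median minus-strand position lay 212.5 bp above the median plus-strand position. In the Tet3 bin chr6:83354001-83355000 there were 68 and 84 reads, with a gap of 213.0 bp. In the Tet1 bin chr10:62342001-62343000 there were 50 and 61 reads, with a gap of 233.0 bp. Both strands thus contributed in each bin at 600 mM, with plus-strand reads to the left. In the 800 mM eluate the gaps were 194.0, 248.5 and 209.0 bp over 50, 43 and 22 reads. The antibody libraries did not share this order in every bin: in chr6:83354001-83355000 the gap was -119.5 bp over 19 MeDIP reads and -286.0 bp over 15 hMeDIP reads. In the Tet3 bin chr6:83354001-83355000, 146 of the 152 reads at 600 mM fell between 200 and 800 bp of the bin, and in the Tet1 bin 108 of 111. In the other Tet3 bin 84 of 154 did, so that peak lies nearer to a border of its bin.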
